A study of Mus musculus with 4 samples.

Results

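The region described here is the part of mouse chromosome 1 from position 168000000 to 177000000 of mm10, 9 Mb that hold the SLAM (Slamf), Fc receptor (Fcgr) and IFI200 (Ifi200) gene clusters. Its members are the single-nucleotide variants (SNVs) and short insertions or deletions (indels) that 2 variant callers, SpeedSeq and VarScan2, both listed at the same position with the same alleles. Each had a depth of at least 10 reads, at least 3 variant reads and a variant allele fraction (variant reads divided by depth) of at least 0.10 in both callers, with a SpeedSeq score of 20 or higher for the quality of the call; such a call is termed confident below. The region was selected on the numbers of these same calls, which are high in some samples and low in others, so that contrast describes the choice and no test is made of it. In all, 2458 variant sites (2261 SNVs and 197 indels) met the rule in at least 1 sample, which is 4.71% of the 52222 sites of all chromosomes.

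The data are whole-exome sequences of genomic DNA from c-Kit-positive leukaemia cells, taken from the bone marrow of moribund mice on a C57BL/6 background. All 4 samples carry the genotype label E2-KO, which the series title gives as Nras-G12D with Ezh2 KO, and they form 1 group. No control group and no normal tissue of the same mice was analysed here, so an inherited variant and an acquired one cannot be told apart. The labels name neither a Cre line nor the animals behind the samples, which are called replicates 1 to 4 in the order of their listing, and the spread between them may be technical in part. As a check of the labels, the G-to-A change in Nras was read in 47.8%, 45.4%, 31.1% and 42.7% of reads in replicates 1 to 4, and no sample had a confident SNV in Ezh2, whose loss by deletion such lists do not measure.

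SLAM receptors are cell-surface proteins of blood cells that mostly bind a second copy of themselves on a neighbouring cell and signal through small adaptor proteins; several are used to sort blood stem cells. Classical Fc receptors bind the constant part of antibodies and either activate or restrain the cell. IFI200 proteins, also called PYHIN proteins, are interferon-inducible and include sensors of DNA such as AIM2. All 3 families lie close together on this chromosome, and inbred mouse strains are known to differ there in sequence and in gene copies. C57BL/6 is the strain of the reference genome.

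The promoter windows of 4 SLAM family genes held a confident SNV in replicate 1 or 2, and they are shown because they are the places in the named families where reference sequence and variant can be put side by side. Each window runs from 250 bases before to 50 bases after a start site of the gene, and is written 5′ to 3′ on the gene's strand. Windows were taken from RefSeq on GRCm38.p6, the assembly of mm10. In Cd244a, Slamf7 and Cd48 this start site lies inside the gene body, so SNVs of the window can also count there. Capitals mark the bases at which a variant was called.
Cd244a, chr1:171558943-171559242, plus strand: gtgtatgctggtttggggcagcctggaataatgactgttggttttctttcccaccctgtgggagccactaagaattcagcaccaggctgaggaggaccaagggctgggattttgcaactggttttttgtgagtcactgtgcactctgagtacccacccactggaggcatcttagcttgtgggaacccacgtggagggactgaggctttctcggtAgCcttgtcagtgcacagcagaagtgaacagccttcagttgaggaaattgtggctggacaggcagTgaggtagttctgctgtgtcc
Slamf7, chr1:171648950-171649249, minus strand: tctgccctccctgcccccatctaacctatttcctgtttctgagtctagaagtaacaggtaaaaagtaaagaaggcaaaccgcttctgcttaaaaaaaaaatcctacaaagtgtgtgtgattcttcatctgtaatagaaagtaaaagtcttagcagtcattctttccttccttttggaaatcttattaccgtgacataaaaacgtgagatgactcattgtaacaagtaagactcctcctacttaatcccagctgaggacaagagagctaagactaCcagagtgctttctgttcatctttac
Cd48, chr1:171681742-171682041, plus strand: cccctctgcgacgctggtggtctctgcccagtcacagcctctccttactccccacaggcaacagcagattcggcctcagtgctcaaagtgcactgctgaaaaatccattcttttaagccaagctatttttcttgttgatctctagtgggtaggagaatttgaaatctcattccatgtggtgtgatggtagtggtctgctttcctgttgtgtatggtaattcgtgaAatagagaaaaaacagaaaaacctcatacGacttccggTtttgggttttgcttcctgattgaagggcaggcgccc
Slamf1, chr1:171766882-171767181, plus strand: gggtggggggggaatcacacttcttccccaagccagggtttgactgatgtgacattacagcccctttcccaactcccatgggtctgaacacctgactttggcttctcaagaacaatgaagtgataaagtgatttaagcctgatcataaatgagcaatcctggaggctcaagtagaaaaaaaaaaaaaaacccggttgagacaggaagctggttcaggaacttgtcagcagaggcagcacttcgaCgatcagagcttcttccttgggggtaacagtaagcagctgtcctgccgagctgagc

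Positions are counted from 1 at the 5′ end of each window. In Cd48, which encodes a ligand of the receptor CD244, the changes G255A and T264G were confident in both replicates 1 and 2. G255A was read in 9 of 15 reads (60%) and 10 of 24 reads (41.7%), and T264G in 12 of 19 reads (63.2%) and 14 of 28 reads (50%). These bases stand directly before and directly after the 8 letters from 256 to 263, which match the ETS motif CCGGAAGT on the opposite strand; neither variant lies inside the match. One more change, A226G, was confident in replicate 2 alone, with 4 of 11 reads. In Slamf7, which encodes a receptor of natural killer cells and plasma cells, C275G was read in 26 of 49 reads (53.1%) in replicate 1 and 34 of 58 reads (58.6%) in replicate 2.

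In Cd244a, which encodes the natural killer cell receptor 2B4, C217T was confident in replicate 1 (5 of 20 reads) and A215G in replicate 2 (9 of 14 reads), and both positions were listed in both samples. T280G was confident in replicate 1 alone, at 28.8% of 73 reads. In Slamf1, which encodes CD150, C245T was confident in replicate 2 alone, with 5 of 12 reads. None of these positions was listed in replicate 3 or 4 at any quality.

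No promoter window of the 12 IFI200 genes or the 8 Fc receptor genes in the RefSeq table held a confident SNV in replicate 1 or 2. Ifi204 had no window in that table. Coverage at positions without a call is not known, so a window without an SNV may not have been read. Several of the Fc receptor genes also lie left of the run of SNVs described below. These motifs were searched on both strands in every promoter window: the core of an interferon response element (GAAA, any 2 bases, GAAA), TTCNNNGAA, bound by STAT factors, the E-box CACGTG, and CCGGAAGT. The interferon response core was found in 10 of the 14 IFI200 windows, in 9 of the 12 genes. Over all genes it was found in 3.44% of 32851 windows. Some of the IFI200 windows belong to the same gene and overlap. Windows of different genes can also be near copies, such as those of Ifi206, Ifi208 and Ifi213, or of Ifi203 and Mndal. Their matches are therefore not independent of each other. The core was found in 1 of 8 SLAM windows (Slamf8) and 2 of 9 Fc receptor windows (Fcgr4 and Fcrla). A window of Ifi203, the IFI200 gene with the most SNVs in its body, is shown with its match in capitals. The match begins 35 bases before the start site of this window, which lies inside the gene body.
Ifi203, chr1:173942443-173942742, minus strand: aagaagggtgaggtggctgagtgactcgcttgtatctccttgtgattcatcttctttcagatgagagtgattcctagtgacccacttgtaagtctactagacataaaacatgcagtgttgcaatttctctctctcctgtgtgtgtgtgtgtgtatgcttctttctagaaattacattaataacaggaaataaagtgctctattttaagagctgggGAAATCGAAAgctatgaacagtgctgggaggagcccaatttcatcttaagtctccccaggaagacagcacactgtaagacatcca

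The same 10 letters, GAAATCGAAA, stood in the windows of Ifi206, Ifi207, Ifi208, Ifi213, Ifi214 and Mndal, and GAAATTGAAA in those of Ifi205 and Ifi211. CACGTG was in 7.15% of all windows and in those of Cd244a, Slamf8 and Slamf9, TTCNNNGAA in 8.30% and in that of Ifi202b, and CCGGAAGT in 3.89% and in that of Cd48. Applying all variants of a window together to the 4 SLAM windows neither created nor removed a match to any of these motifs. A match describes letters and does not show binding.

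Over the whole region, 28 of 163 promoter windows held a confident variant in replicate 1 or 2, beside 1.17% of the windows of all genes. Many of them belonged to olfactory receptor genes, of which Olfr414 held 5 SNVs in replicate 1 and 4 in replicate 2. Captured exons set which windows could be read, and the coverage of the windows is not known. The reference base of the variant equalled the RefSeq base at all 710 of 710 variant positions that fell in a promoter window on any chromosome.

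Replicates 1 and 2 carried nearly all members. In replicates 1 to 4 the region held 1980, 2068, 8 and 5 confident SNVs, and 162, 171, 7 and 5 confident indels. These SNVs were 6.66%, 7.38%, 0.0295% and 0.0268% of each sample's confident SNVs, which numbered 29708, 28035, 27127 and 18624. The median depth at SNVs of all chromosomes was 52, 47, 55 and 55 reads. At SNVs of the region it was 59.5, 50, 27.5 and 29 reads, over 8 and 5 SNVs in replicates 3 and 4. These medians cover called sites only, so they do not give the depth where replicates 3 and 4 have no call. At such medians the interval of a single allele fraction is wide. All intervals given here are exact binomial 95% intervals that cover counting error only. Copies made by PCR can be read more than once, so true errors are larger.

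The limits of the rule left out few SNVs that both callers listed. Both listed 2066 SNVs of the region in replicate 1 and 2147 in replicate 2 with the same alleles, of which 86 and 79 failed a minimum. A depth of 8 or 9 in a caller held for 76 and 66 of those listed, and 55 and 37 members had a depth of 10 or 11. The lowest fraction of a member was 0.20, because VarScan2 lists nothing under 20%.

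**Figure D1:**
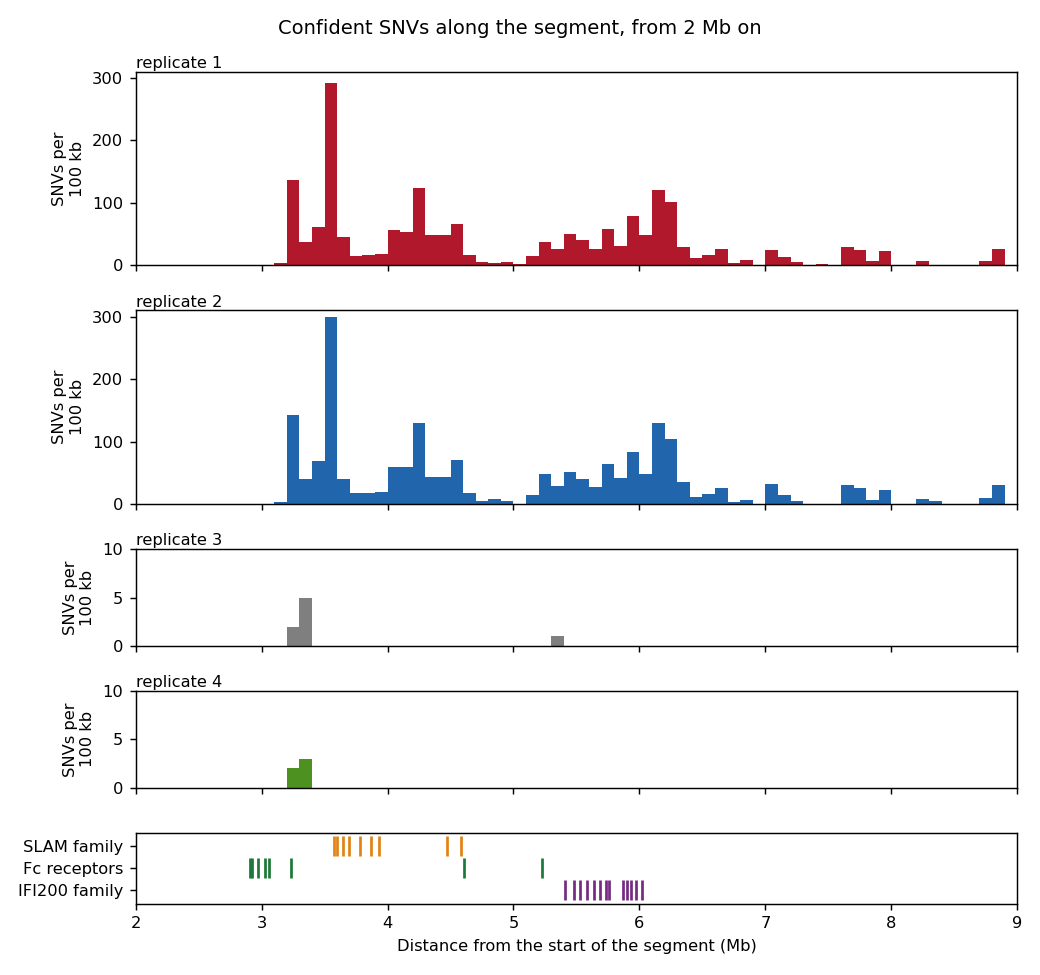
Confident SNVs per 100 kb (vertical axis) against the distance from the start of the region (horizontal axis, Mb, drawn from 2 to 9 Mb), 1 panel per replicate, with a smaller vertical scale for replicates 3 and 4; ticks in the lowest panel mark the middle of each gene of the SLAM, Fc receptor and IFI200 lists. Over this range replicates 1 and 2 follow a like profile, with the highest bar at 291 and 300 SNVs.

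Of the 2261 SNV sites, 1786 (79.0%, interval 77.3 to 80.7) were confident in replicates 1 and 2 and in neither 3 nor 4, against 12.2% of the SNV sites of all chromosomes, which include the region, and 8.72% of those outside it. Replicates 1 and 2 shared 1789 sites in all, which were 90.4% of those of replicate 1 and 86.5% of those of replicate 2. Outside the region the same pair shared 69.3% and 74.0% of theirs. Of the 1789 shared sites, 3 were listed in replicate 3 and 3 in replicate 4, by either caller at any quality. The files list no coverage at positions without a variant, so the depth of replicates 3 and 4 at the other sites is unknown.

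Some sites were confident in only 1 of these 2 samples. Replicate 1 had 191 sites that were confident in none of the others, and 101 of these positions were listed in replicate 2. Of the 90 that were not, 42 lay in the most crowded 100 kb, and their median depth was 25.5 reads. Replicate 2 had 279 sites that were not confident in replicate 1, of which 162 were listed there, and the 117 others had a median depth of 20 reads. The indels were shared in the same way: 142 were confident in both samples, of 162 in replicate 1 and 171 in replicate 2.

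The SNVs shared by replicates 1 and 2 did not fill the 9 Mb evenly. Replicates 1 and 2 had the same first shared SNV at 171174547, in Pcp4l1, and their last SNVs were at 176972424 and 176878119, so this run spanned 5.80 and 5.70 Mb. Counts per 0.5 Mb were uneven along it. They were highest between 171500000 and 172000000, with 387 and 397 SNVs, and reached 313 and 330 between 174000000 and 174500000. In the last 1 Mb of the region they were 8 and 14, then 35 and 40. Beyond the region, the next confident SNV lay 5.60 Mb past the last one in replicate 1 and 4.30 Mb past it in replicate 2. Spacing within the run was short: the median distance between neighbouring SNVs was 93 and 90 bp, and 51.2% and 52.1% of neighbours lay within 100 bp. Captured exons set where SNVs could be read, so these distances follow the capture as well as the chromosome.

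The classical Fc gamma receptor genes in the region's name lay outside this run. Fcgr3, an activating receptor, ended 109 kb before the first shared SNV, and Fcgr2b, the inhibitory receptor, Fcgr4, Fcrla and Fcrlb lay further to its left. None of these 5 genes had a confident SNV in any sample, and Fcrlb had 1 confident indel, in replicate 1. The coverage of their exons is not given in the files. The run therefore covers the SLAM and IFI200 clusters and 3 Fc receptor genes, and the label's Fcgr cluster only flanks it.

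Most genes of the run carried SNVs in both samples. Of the 132 protein-coding genes that touch the region, 103 held a confident SNV in replicate 1 and 102 in replicate 2, beside 11.9% and 11.5% of all 21887 protein-coding genes. In replicates 3 and 4 the numbers were 5 and 3, beside 11.8% and 8.25%. From the first shared SNV on there were 105 genes, of which 102 held an SNV in each of replicates 1 and 2. The 3 without one were the autophagy gene Becn2, the olfactory receptor gene Olfr430 and Tma7-ps. Exon positions were not used, so an SNV is placed in a gene body only, and an SNV where genes overlap counts for each.

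All 9 SLAM family genes held SNVs in both samples, and none did in replicate 3 or 4. Cd244a had the most by far, with 116 and 127. Ly9, which encodes CD229, had 26 and 28, and Slamf8 had 23 and 24. Slamf6, which encodes Ly108, had 16 and 18, and Cd48 had 16 and 14. Slamf7 had 11 and 12, Slamf1 had 11 and 13, Cd84 had 8 and 9 and Slamf9 had 6 and 6. Replicates 1 and 2 shared 26 of these SNVs in Ly9 and 23 in Slamf8, which was every SNV of replicate 1 in those genes. The same held in Slamf7, Slamf1, Cd84 and Slamf9. They shared 15 in Slamf6, 14 in Cd48 and 90 in Cd244a.

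Indels followed in the same genes. The longest one shared by replicates 1 and 2 in the SLAM list was a deletion of the 8 bases tttgtttg in Slamf6 at position 171941593, read in 51.4% of 37 reads and 47.7% of 44 reads. Slamf1 had a 4-base deletion of tgct at 171799498 (53.7% and 48.1% of reads), and Slamf6 an insertion of tgtg at 171939375 (61.0% and 50%). Cd244a had a deletion of the 3 bases gct at 171580654, at 29.0% and 30% of reads. Their position relative to exons was not determined.

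Of the 8 Fc receptor genes, 3 held SNVs, and the other 5 were those left of the run. Fcrl6, an Fc receptor-like gene, had 18 and 19, and Fcer1a, which encodes the IgE-binding chain of the high-affinity IgE receptor, had 7 and 9. Fcer1g, which encodes the signalling chain shared by several Fc receptors, had 7 and 6, with a 2-base deletion of cc at 171230032 in 43.1% and 35% of reads. Fcer1g stands at the left edge of the run, among its first genes.

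All 13 IFI200 genes held SNVs in both samples, 249 and 263 in sum. The most were in Ifi203 (40 and 41), Ifi206 (38 and 39), Ifi202b (28 and 28) and Ifi213 (22 and 21). Ifi202b is known to vary in expression between mouse strains. Ifi214 had 19 and 19, Ifi207 had 18 and 22, Mndal 15 and 18, and Ifi209, listed also as Pyhin1, 14 and 16. Ifi205 had 14 and 16, Aim2, the sensor of cytosolic DNA that starts an inflammasome, 13 and 13, and Ifi208 12 and 11. Ifi204, another DNA sensor, had 9 and 12, and Ifi211, listed also as Mnda, 7 and 7. These genes are close copies of each other, and reads of such genes can be placed in the wrong copy. The mean mapping quality of the variant reads was under 50 at 85 of the 249 SNVs in replicate 1 and 93 of the 263 in replicate 2, against 0 in the SLAM and Fc receptor lists. In Ifi203 this held for 21 and 21 SNVs, and in Ifi206 for 18 and 20, so counts in this family are less certain.

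**Figure D2:**
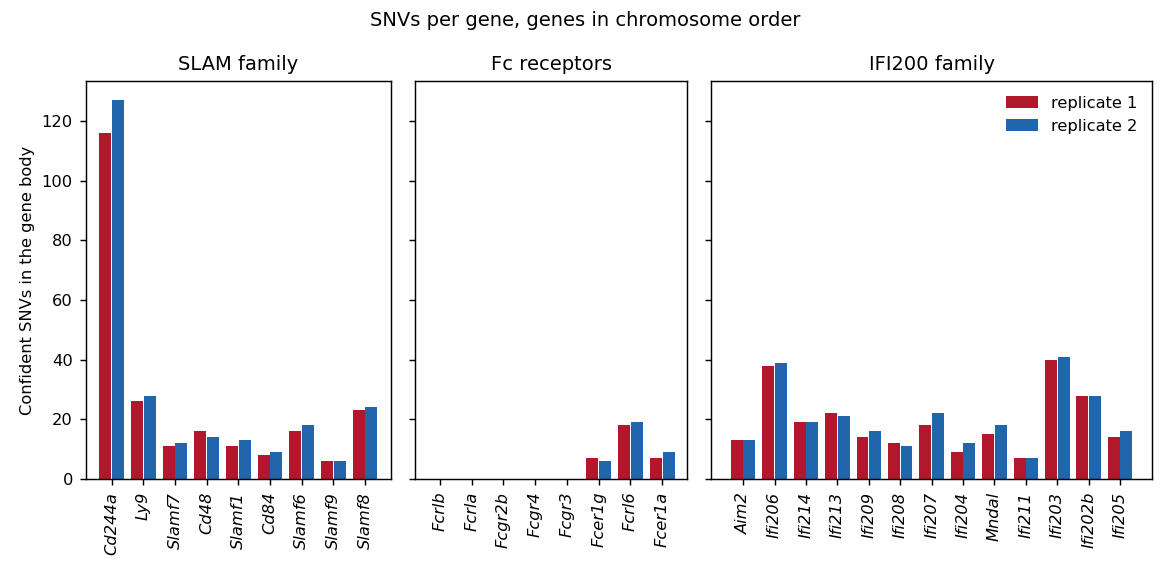
Confident SNVs in the gene body (vertical axis) of each gene of the SLAM, Fc receptor and IFI200 lists (horizontal axis, in chromosome order), with a bar for replicate 1 and a bar for replicate 2. Cd244a reaches 116 and 127, and the 5 Fc receptor genes on the left have none.

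Genes of other kinds in the run carried SNVs as well. Itln1, which encodes the sugar-binding protein intelectin, had 79 and 103. In the same list of pentraxin and blood-cell genes, Arhgap30 had 29 and 32 and Ncstn, a subunit of gamma-secretase, 26 and 26. In the list of channel, pump and nervous system genes, 9 of 12 held SNVs, among them the sodium pump gene Atp1a4 (56 and 60), Fmn2 (52 and 50) and Rgs7 (45 and 52). In that of metabolism, stress and DNA repair genes, 3 of 6 did: Kmo (22 and 21), the exonuclease gene Exo1 (10 and 11) and Fh1 (1 and 1). Of the 19 olfactory receptor genes, 18 did, with 20 and 20 in Olfr418, 12 and 12 in Olfr427 and 10 and 10 in Olfr1406. The median gene of the region held 7 SNVs in each of replicates 1 and 2.

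Among the longest shared insertions were the 11 bases taggcagctca in Tagln2 at 172506460 (38.5% and 33.3% of reads) and tcccaaagac in Rgs7 at 175121880 (22.0% and 28% of reads). Of the indels, 56.8% and 55.0% changed 1 base and 14.2% (interval 9.22 to 20.5) and 15.8% (10.7 to 22.1) had a length divisible by 3. Outside the region the last share was 12.4% (11.3 to 13.6) and 11.4% (10.3 to 12.5), within the intervals of the region.

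The allele fractions of the members centred a little under 0.5. At a depth of 30 reads or more, replicate 1 had a median of 0.479 over 1493 SNVs (quartiles 0.403 and 0.537) and replicate 2 of 0.459 over 1491 SNVs (quartiles 0.387 and 0.523). Fractions of 0.65 or more made up 3.62% and 3.82% of these SNVs, beside 22.3% and 22.0% outside the region. SNVs outside that stayed under 0.65 had medians of 0.451 and 0.462, and those of the region under 0.65 had 0.474 and 0.455. The distal part of the same chromosome, from 182 to 193 Mb, had medians of 1.0, 0.508, 0.797 and 0.566 in replicates 1 to 4, so all 4 samples carried SNVs there.

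**Figure D3:**
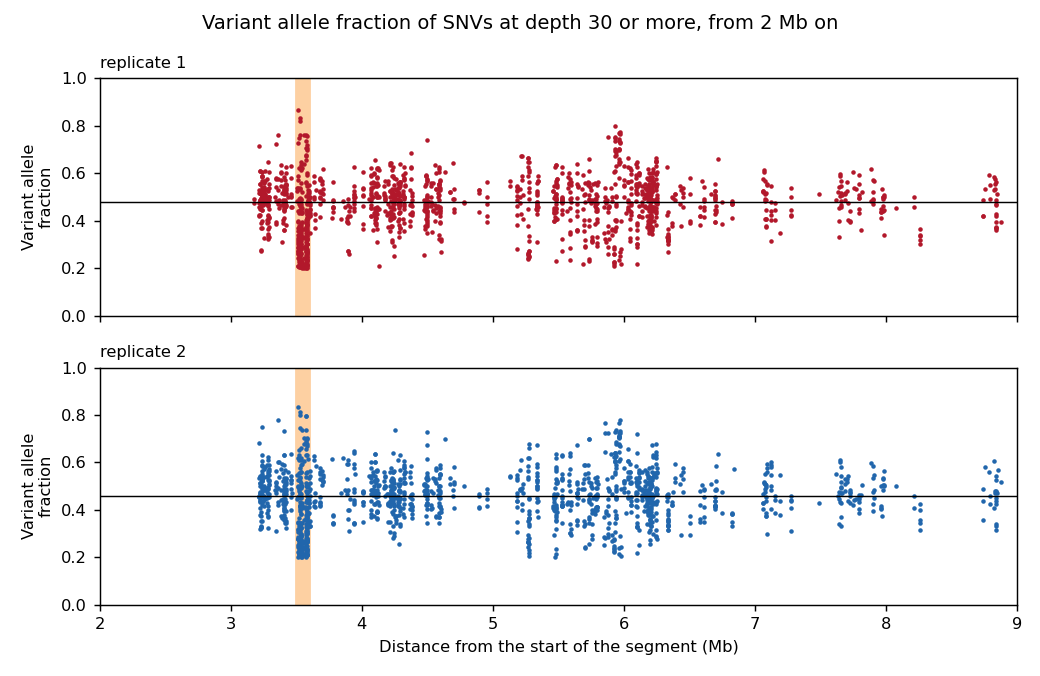
Variant allele fraction (vertical axis) of each confident SNV with a depth of 30 or more against the distance from the start of the region (horizontal axis, Mb, drawn from 2 to 9 Mb) in replicates 1 and 2; the line is the median of the sample, 0.479 and 0.459, and orange marks the most crowded 100 kb. Most points lie around the line. Low fractions gather in the orange stretch, and high ones both there and near 6 Mb, where Ifi202b lies.

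At 1329 sites confident in both samples at this depth, the fraction of replicate 1 minus that of replicate 2 had a median of 0.011. Replicate 1 was higher at 55.5% of these sites and in 6 of 6 bins of 1 Mb. The smallest bin median was 0.0012, in the bin from 171000000. In the most crowded 100 kb the median was -0.00083 over 185 sites, and replicate 1 was higher at 48.6% of them. At 9232 shared sites outside the region that stayed under 0.65 in both, the same difference had a median of -0.0081. The region's sites were not cut at 0.65. Fractions of the 2 samples moved together across sites (Pearson r = 0.62, Spearman rho = 0.49 over the 1329 sites, which share sequence context and mapping). Each value compares 2 libraries without a replicate, and no test was made.

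Gene medians were close to 0.5 in most genes and departed from it in the same genes in both samples. Of 75 genes with at least 5 SNVs at a depth of 30 in both samples, 67 had medians between 0.40 and 0.60 in both. The 6 with medians under 0.40 in both were Fcer1g, Itln1, Cd244a, Olfr418, Olfr427 and Mptx1, a pentraxin gene, and the 1 above 0.60 in both was Ifi202b. Slamf1 was in none of these classes, with 0.459 and 0.359 over 8 and 6 SNVs.

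All 7 of these genes had a median depth above that of the region in both samples. Over SNVs of any depth the ratio to the region was 1.65 and 1.44 in Fcer1g, 2.17 and 2.25 in Olfr418, 3.13 and 2.81 in Olfr427 and 1.78 and 1.76 in Mptx1. A high depth was also found in genes with fractions near 0.5, such as Olfr424, chosen after its values were seen, with ratios of 3.14 and 3.84 and median fractions of 0.480 and 0.484. Itln1 had a median fraction of 0.336 in replicate 1 and 0.308 in replicate 2, and the median depth of its SNVs was 1.84 and 1.53 times that of the region's SNVs at a depth of 30 or more. Cd244a had medians of 0.329 and 0.343 at 1.71 and 1.55 times the depth. The lowest fractions in Itln1 and Cd244a were at or close to 0.20, the lowest that VarScan2 lists. Any lower ones would be missing from these medians and from the shares given below. Ifi202b had medians of 0.660 and 0.675 at 1.60 and 1.84 times the depth. All other SNVs, outside Ifi202b and the most crowded 100 kb, had medians of 0.487 and 0.468 at 0.923 and 0.914 times. Ifi204, with a median depth of 285 and 198 reads, had medians of 0.402 and 0.413. Inbred strains are known to differ in the number of Cd244 and intelectin genes; the part of gene copies or of misplaced reads in these fractions was not tested.

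**Figure D4:**
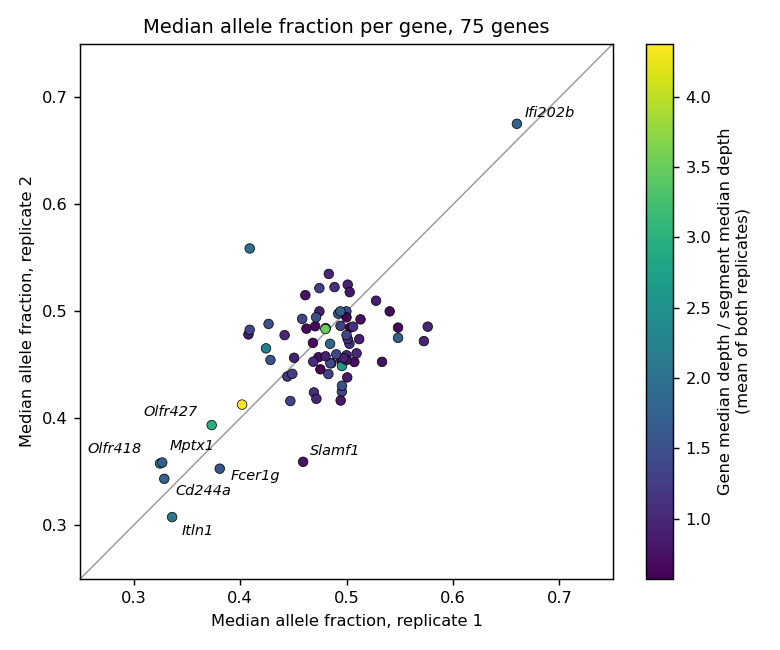
Median allele fraction of each of the 75 genes in replicate 1 (horizontal axis) and replicate 2 (vertical axis), coloured by the ratio of the gene's median depth to that of the region, averaged over both samples. Of these, 67 genes lie between 0.40 and 0.60 in both, Itln1 and Cd244a lie below, and Ifi202b lies above at 0.660 and 0.675.

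Itln1 and Cd244a lie in the most crowded 100 kb, from 171500000 to 171600000, which held 14.7% and 14.5% of the region's SNVs in replicates 1 and 2. Their fractions were lower than in the rest of the region, which here leaves out Ifi202b and these 100 kb. In the rest, 16.7% and 21.05% of the SNVs lay under 0.40 and 7.88% and 6.22% above 0.60. In Itln1, 66.2% and 66.7% of the SNVs lay under 0.40 and 10.3% and 8.60% above 0.60. In Cd244a the shares were 68.3% and 63% under 0.40 and 11.9% and 15% above 0.60. In Ifi202b, 23.8% and 22.7% lay under 0.40 and 66.7% and 72.7% above 0.60. Both samples reached 0.65 at 31 of the 1329 shared sites, of which 10 were in Cd244a, 9 in Ifi202b and 3 in Itln1. The highest of them was at 171515282, between genes and next to Itln1, at 0.867 of 256 reads and 0.835 of 231 reads. Mapping quality differed between the genes: it was under 50 at 16 and 20 SNVs of Itln1, 1 and 0 of Ifi202b and 0 and 0 of Cd244a.

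Fractions were also lower where SNVs stood close together. SNVs with no other SNV within 50 bp had medians of 0.492 and 0.483 in replicates 1 and 2, and those with 3 or more neighbours had 0.410 and 0.395. Without the most crowded 100 kb the latter were 0.480 and 0.438, so the difference was smaller without it.

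Transition shares inside and outside the region differed by less than their counting intervals. Transitions made up 70.9% of the region's SNVs in replicate 1 (interval 68.8 to 72.9) and 70.8% in replicate 2 (68.8 to 72.8), beside 69.7% and 70.2% outside it. Neighbouring SNVs of a run are not independent, so these intervals are too narrow as a measure of difference.

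The 8 SNVs of replicate 3 and the 5 of replicate 4 were mostly shared. Both C-to-A changes in Apoa2, an apolipoprotein gene, at 171225530 and 171225552, were read in 100% of the SpeedSeq reads in all 4 samples; in replicate 1 they were not confident, with 5 and 18 reads there and no listing by VarScan2. In Pfdn2, a subunit of the chaperone prefoldin, an A-to-G change at 171357963 was read in 76%, 77.7%, 55.5% and 57.8% of reads in replicates 1 to 4. It was confident in all 4 samples and higher in the 2 carriers of the run. In the neighbouring gene Nit1, an A-to-C change at 171344579 was confident in all 4 samples as well, at 72.5%, 51.5%, 44% and 55.4% of reads. The remaining sites were another SNV in Nit1, at 171344433, a pair in Pfdn2, at 171358093 and 171358128, and one at 173355166. The last lies in the overlap of Cadm3 and Aim2 and was confident in replicate 3 alone, at 10 of 10 reads. SpeedSeq also listed it in replicate 2 (3 of 3 reads) and replicate 4 (4 of 4 reads), under the depth minimum. Among indels, a 1-base deletion in Cadm3 at 173349125 was confident in all 4 samples at 100% of the SpeedSeq reads. VarScan2 read it in 68.8%, 83.3%, 87.5% and 90.9% of reads.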

How the data were processed

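Exome DNA of 4 samples was captured with an Agilent SureSelect mouse kit, per the labels' protocols. The deposited SpeedSeq file of each sample was made by freeBayes 0.9.21 against mm10, per the file headers, and holds a Phred-scaled quality score with whole-read depths. The deposited VarScan2 tables hold reference and variant reads, per the file headers; they list nothing under a frequency of 20%. The builds mm10 and GRCm38 are named in the submitters' processing notes. The aligner is not given in the sources used here, nor is the handling of duplicate reads. Calls were matched between callers after trimming shared bases. SpeedSeq records that change several neighbouring bases at once were kept out of SNV counts, except in promoter windows, where they were split. Medians used a depth of at least 30. Intervals are exact (Clopper-Pearson) at 95%. The design has 1 group, so no test between groups was made. Gene starts and ends, promoters and miRNA hairpins came from RefSeq tables of GRCm38.p6. The text names every gene of the SLAM, Fc receptor and IFI200 lists and up to 4 of each other list, by SNV number, except that some genes and SNVs are not reported here, and plots by position start at 2 Mb; other genes were named after their values were seen. The region, its members and the lists were chosen with earlier results of these data known. The matching was tested on simulated records. Python 3.11, pandas 2.3.3, numpy 2.4.6 and scipy 1.17.1 were used.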

Additional observations from a re-analysis of the deposited data

How the results depend on the processing

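The settings tried were either caller alone, higher minimums of depth, quality and fraction, crowded calls left out, wider bounds and split multi-base records. Leaving out SNVs within 100 bp of another lowered the SNV counts of replicates 1 to 4 from 1980, 2068, 8 and 5 to 548, 568, 4 and 3, since it removes runs of close SNVs, and the share found in both carriers from 79.1% to 73.2%. It moved the median fractions to 0.492 and 0.479 and the transition share of replicate 2 to 75.2%. Splitting multi-base records gave 2261, 2391, 10 and 7 SNVs. VarScan2 alone gave 8 SNVs and 15 indels in replicate 4 and transition shares of 68.4% and 68.4%. A depth minimum of 20 gave 3 SNVs in replicate 4 and 2 indels in replicate 3. Counting any listing in the second sample raised the shared share to 90.8%. A fraction minimum of 0.25 gave a median of 0.467 in replicate 2. Chosen after seeing the data, leaving out the most crowded 100 kb gave a share of 83.6% and medians of 0.488 and 0.468. Leaving out each replicate gave 1985 to 2261 SNV sites. The median difference between replicates 1 and 2 stayed positive under each setting tried for it, from 0.0097 to 0.0154. The lists kept 9, 3 and 13 genes with an SNV under each caller alone and at a depth of 20. No paired analysis was possible because the study has 1 group. Unlisted positions have no recorded depth, so a missing call does not show a reference base, and variants under 20% of reads cannot be seen.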

Other observations

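Of the SNVs of the region, 11.2% in replicate 1 and 10.1% in replicate 2 lay outside every protein-coding gene. None of the 5 miRNA hairpins in the region held a confident variant in any sample. Multi-base records that passed the SpeedSeq minimums, which the counts leave out, numbered 139, 155, 1 and 1 in replicates 1 to 4.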
